A study of Mus musculus with 4 samples.

Results

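LINEs (long interspersed nuclear elements) were followed here in mouse embryonic fibroblasts (MEF cells) with and without the DNA topoisomerase Top2β. The counts table holds 1 row per gene and per repeat family, and the 158 LINE families are all rows whose repeat class is LINE, out of 1562 repeat families and 54842 genes. They comprise 6 families with L1Md names, 31 other rodent L1 families (names beginning with Lx, L1_Mus, L1_Mur or L1VL), 87 old L1 families with L1M or L1P names, 4 L2 families, 15 CR1 families, 8 other L1 families and 7 remaining families. The data are total RNA depleted of ribosomal RNA, from 2 libraries of untreated wt MEF cells and 2 libraries of untreated Top2β-null MEF cells, with no other allele or agent named. The Top2β-null cells were a gift from other laboratories, and the wt cells are not described as their littermates, so genotype and cell origin cannot be told apart. The labels do not say that the libraries of a genotype came from separate cultures, and the p-values therefore measure the spread between these libraries.

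A LINE is a retrotransposon that moves by copying its RNA back into DNA. An intact L1 carries an internal promoter, an RNA-binding protein and a second protein with endonuclease and reverse transcriptase activity, while most genomic copies are truncated at the 5′ end. L1Md families are the youngest in the mouse and include copies that can still move; Lx and the other rodent families are older, and most L1M copies, like those of L2 and CR1, are inactive remnants that are older than the rodents. The table counts all annotated copies of a family together, also copies inside genes, and does not tell a transcript started at a LINE promoter from one that runs through a copy. Reads that align to several places may have been shared between families, so related rows are not independent. The study's methods describe an annotation that separates parts of L1 elements, whereas the table lists each L1 family, L1Md_A included, as 1 undivided row, so which parts of an L1 its rows count is not known.

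The 4 libraries held between 133116830 and 149647278 counts. Normalized counts are counts divided by a size factor per library, taken from edgeR's TMM method with genes and repeats pooled. Top2b itself, the targeted gene, had 18259 and 18465 normalized counts in wt cells and 3879 and 3789 in Top2β-null cells, a log2 fold change of -2.26 (SE 0.0271, adjusted p = 6.56e-19, edgeR's quasi-likelihood test). Of 10 fibroblast markers, 9 were present and only Lum stayed at or below 4.0 normalized counts in all 4 libraries. Summed over the 10, they held 1300520 and 1325158 normalized counts in wt cells and 885712 and 890677 in Top2β-null cells. Of the 9, 4 were lower (Col1a1, Col3a1, Vim and Fn1) and 4 higher (Thy1, Pdgfra, Pdgfrb and Dcn), with Dcn going from 226 and 223 to 7053 and 7239 normalized counts. The 13 markers of leukocytes, epithelium, endothelium and pluripotent cells summed to between 1294 and 1906 normalized counts, and 4 of them (Ptprc, Tyrobp, Epcam and Dppa4) stayed below 10 in every library. Sox2 was at 0 in both wt libraries and at 677 and 730 in Top2β-null cells, and Nanog went from 3.0 and 1.0 to 43.5 and 42.6, whereas Pou5f1 did not exceed 19.8. Cd68, a macrophage marker, fell from 1641 and 1688 to 302 and 289. The part of these marker differences in the LINE values was not tested.

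LINE rows took up a slightly larger part of the RNA in Top2β-null cells. Their share of all counts was 3.49% and 3.45% in wt cells and 3.93% and 3.70% in Top2β-null cells. Both Top2β-null libraries lay above both wt libraries, but they were farther from each other than the wt libraries were. As a share of the counts on repeats, LINEs held 17.9% and 17.8% in wt cells and 18.4% and 18.2% in Top2β-null cells. The summed LINE level rose from 5017773 and 4983340 to 5421586 and 5057240 normalized counts, which is 1.05-fold, and the difference of 0.066 on the log2 scale was close to the pooled SD of 0.0504. An exact two-sided permutation test gave p = 0.33 for this sum, the smallest value that 2 against 2 libraries allow. In bulk RNA, a change in some of the cells and a smaller change in all of them cannot be told apart.

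Of the 158 LINE rows, 157 reached 10 counts in 2 or more libraries and were tested. L1M2a1, an old L1 family with 1 or 2 counts per library, was not. With edgeR's quasi-likelihood test and p-values adjusted over all 26566 features, 57 LINE rows (36.3%) were higher in Top2β-null cells, against 32.5% of all features. Only 7 LINE rows (4.46%) were lower, against 32.5% of all features, and 24 were lower when repeats were fitted alone. With other settings the number of LINE rows higher was 48 (repeats fitted alone), 76 (TMM factors from genes alone), 80 (no filter on low counts) and 103 (scaled to the total count). The share of all features called was computed only for the fit used throughout and for the scaling to the LINE total described below. These other counts therefore have no share to be read against. Among the other repeats, 26.6% of 1324 rows were higher and 13.4% lower.

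The changes were small. For 96 of the 157 rows the log2 fold change was below 0.1 in absolute value, for 133 it was below 0.25, and 7 rows reached 0.5. The median over LINE rows was 0.062, compared with 0.0027 over all features, -0.0058 over genes and 0.037 over the other repeats. Only 1 LINE row, L1M2b, passed the study's full cut-offs (adjusted p below 0.05, absolute log2 fold change above 1 and mean normalized count above 100), which 10.2% of all features passed. L1M2b lay under the fold cut-off without wt replicate 2 (log2 fold change 0.835), where L1_Mm (-1.01) and L5 (1.13) passed instead, and when scaled to the LINE total (0.996), where L1_Mm (-1.05) passed. In 73 rows both Top2β-null libraries lay above both wt libraries, and in 15 rows both lay below. These are 46.5% and 9.55% of the tested LINE rows, and the same held for 40.3% and 40.2% of all features.

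**Figure D1:**
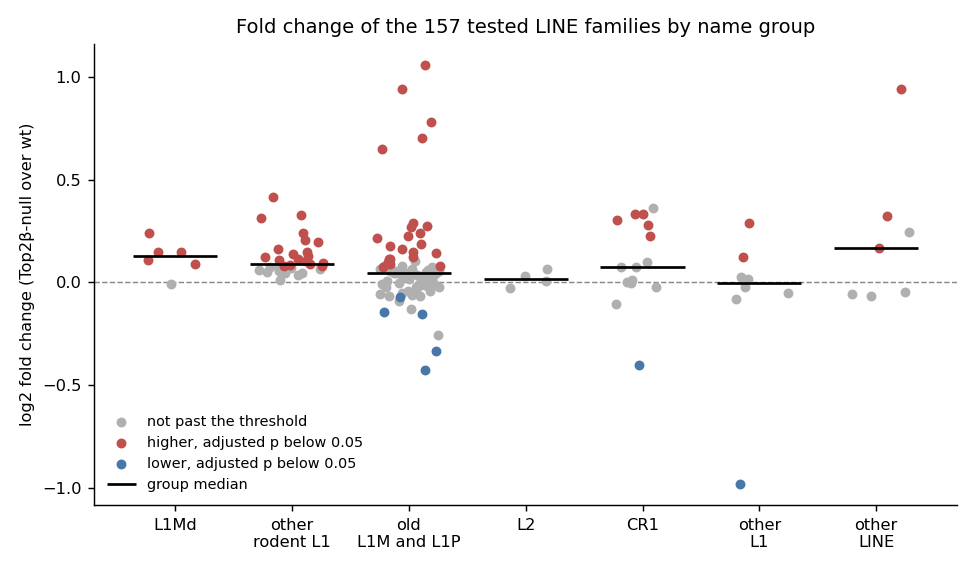
Each point is 1 of the 157 tested LINE families, placed by name group on the horizontal axis and by its log2 fold change (Top2β-null over wt, edgeR) on the vertical axis. Red and blue points are higher or lower with an adjusted p below 0.05, grey points are not past it, and black lines are group medians. The medians are 0.13 for L1Md, 0.091 for other rodent L1, 0.045 for old L1, 0.019 for L2, 0.075 for CR1, -0.0029 for other L1 and 0.17 for other LINE, and the widest scatter is among the old L1 rows.

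The number of these calls rests on how the libraries were scaled against each other. The Top2β-null libraries themselves differed over nearly all LINE rows. Top2β-null replicate 1 lay above replicate 2 in 145 of 157 LINE rows (92.4%), with a median log2 difference of 0.10. The wt libraries differed by a median of 0.012 over the same rows. The median difference between the Top2β-null libraries was 0.094 over the other repeats and -0.0026 over genes, so it was shared by repeats and not by genes. This replicate difference exceeded the median difference between genotypes. Without Top2β-null replicate 2 the median log2 fold change over LINE rows was 0.128, and without Top2β-null replicate 1 it was 0.053. When all features were scaled to the LINE total of their library, an alternative chosen after this was seen, 21 LINE rows were higher (26.1% of all features were) and 8 lower (33.9% of all features were). All 21 were among the 57, and 6 of the 8 were among the 7. The median LINE row then stood at -0.0051. This scaling makes the LINE total equal in all libraries and so removes any shift that LINE rows share. A small median therefore follows from the scaling itself. Whether a row passes with it tells only of a change relative to the other LINE rows.

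**Figure D2:**
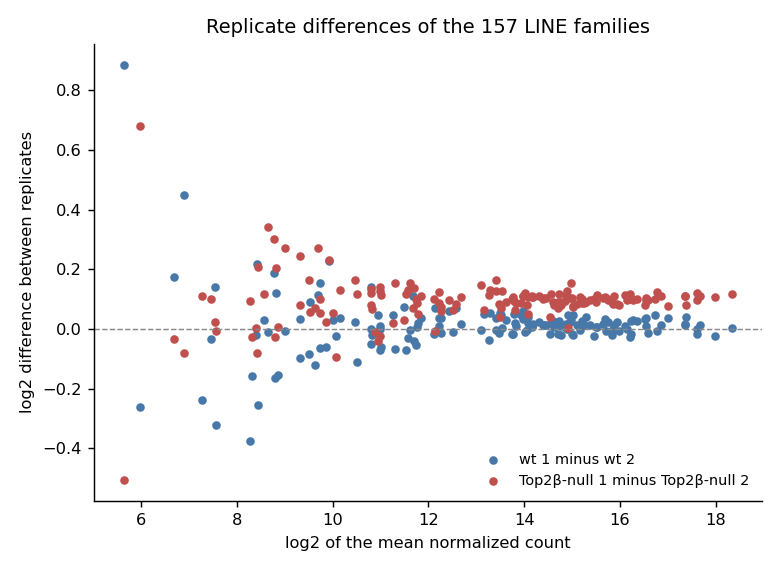
For each of the 157 tested LINE families, the vertical axis gives the log2 difference between the 2 libraries of a genotype (0.5 added to each normalized count) and the horizontal axis the log2 of the mean normalized count. Blue points are wt and red points Top2β-null; above about the middle of the axis the red points form a band near 0.10 and the blue points a band near 0.012.

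The L1Md families, the youngest, were higher in Top2β-null cells in 5 of 6 rows, against 32.5% of all features, and none was lower. Scaled to the LINE total, 1 of the 6 was higher, against 26.1% of all features. L1Md_F2 had 319454 and 318910 normalized counts in wt cells and 358430 and 330678 in Top2β-null cells. Its log2 fold change was 0.11 (SE 0.0371, adjusted p = 0.0162, edgeR), and scaled to the LINE total it was 0.043 and not past the threshold (adjusted p = 0.554). Both Top2β-null libraries exceeded both wt libraries, yet replicate 1 stood much farther away than replicate 2.

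L1Md_T, a family with copies still able to move, went from 187275 and 189447 to 217235 and 199928 normalized counts, a log2 fold change of 0.15 (SE 0.0362, adjusted p = 0.00209, edgeR). L1Md_F3 went from 56491 and 56527 to 64386 and 60784, which is also 0.15 (SE 0.0297, adjusted p = 4.01e-04, edgeR). L1Md_F changed most within the group, from 9961 and 9993 to 12312 and 11265 normalized counts, or 0.24 (SE 0.034, adjusted p = 1.19e-05, edgeR). In all 3 families the genotypes did not overlap. Scaled to the LINE total, L1Md_F remained past the threshold (log2 fold change 0.17, adjusted p = 0.0179, edgeR), while L1Md_T and L1Md_F3 had an adjusted p of 0.256 and 0.274.

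L1Md_A is the young family for which the study also designed RT-qPCR primers. From RNA sequencing of wt and Top2β-null MEF cells, analysed with DESeq2, the study reported no expansion of L1Md_A transcripts. Here L1Md_A passed the threshold with edgeR and also with DESeq2 (log2 fold change 0.095), so this call differs from the study's. Of the 5 families that were higher, it had the smallest increase. Its normalized counts were 108843 and 109389 in wt cells and 120988 and 110972 in Top2β-null cells, with a log2 fold change of 0.088 (SE 0.0354, adjusted p = 0.0398, edgeR). Replicate 2 of the Top2β-null cells exceeded the higher wt library by little, and replicate 1 made up most of the difference. Without that replicate the log2 fold change was 0.063 and no longer past the threshold, nor was it without wt replicate 1 (0.07), without wt replicate 2 (0.077) or when scaled to the LINE total (0.02). Without Top2β-null replicate 2 it was 0.17 and past the threshold.

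L1Md_Gf, another young family with copies that can move, did not follow the other L1Md families. It had 5857 and 5895 normalized counts in wt cells and 5978 and 5715 in Top2β-null cells, and the genotypes overlapped (log2 fold change -0.0075, SE 0.0301, adjusted p = 0.843, edgeR). The sign of this value changed with the scaling. Its log2 ratio to the summed other L1Md families, which no scaling touches, was -6.86 in both wt libraries, and -7.02 and -6.96 with Top2β absent. The ratio fell by 0.13 on the log2 scale in Top2β-null cells, against a pooled SD of 0.0256 (exact permutation p = 0.33, the smallest possible).

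**Figure D3:**
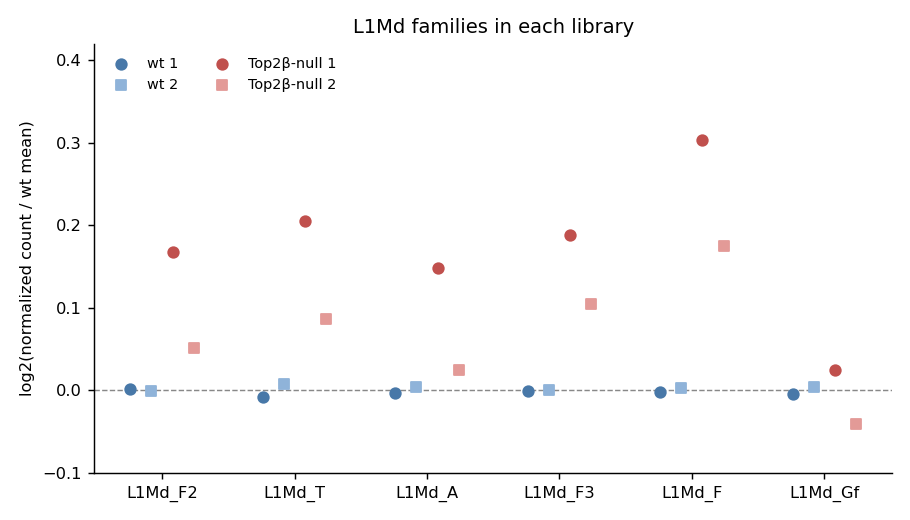
Points give the log2 of the normalized count over the wt mean for each of the 6 L1Md families, with 1 point per library (blue wt, red Top2β-null, circles replicate 1 and squares replicate 2). The wt points lie on the line at 0, Top2β-null replicate 1 lies above replicate 2 in all 6 families, and L1Md_Gf alone has a Top2β-null library below wt.

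The other rodent L1 families had mostly small fold changes. All 31 had a positive log2 fold change, between 0.013 and 0.42 with a median of 0.091. Of these, 19 (61.3%) were higher and none was lower, against 32.5% of all features in each direction. In 24 rows (77.4%) both Top2β-null libraries lay above both wt libraries, against 40.3% of all features. By name, 13 of 21 Lx, 2 of 4 L1_Mus, 2 of 3 L1_Mur and 2 of 3 L1VL families were higher.

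The most abundant rodent rows were not those that changed most. Lx8 had 252242 and 256142 normalized counts in wt cells and 276447 and 256818 in Top2β-null cells (log2 fold change 0.069, adjusted p = 0.103, edgeR). For Lx9 the counts were 205011 and 203328 against 223702 and 207127 (0.077, adjusted p = 0.0677, edgeR). Both passed the threshold with DESeq2 (0.076 and 0.085), with TMM factors from genes alone (0.088 and 0.096), when scaled to the total count (0.14 and 0.15), without a filter (0.086 and 0.094) and without Top2β-null replicate 2 (0.14 and 0.15). L1_Mus3 passed the test, with 191017 and 190850 against 218475 and 204244 (0.15, SE 0.0338, adjusted p = 0.00124, edgeR), though not when scaled to the LINE total (0.079, adjusted p = 0.256).

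Rodent families with larger differences, chosen after their values were seen, were L1VL1, Lx2A1 and Lx3A. L1VL1 rose from 8353 and 8572 to 11749 and 10855 normalized counts (log2 fold change 0.42, SE 0.0332, adjusted p = 1.32e-08, edgeR). Lx2A1 rose from 4229 and 4200 to 5460 and 5142 (0.33, SE 0.0341, adjusted p = 3.18e-07, edgeR), and Lx3A from 24666 and 25028 to 31911 and 29992 (0.32, SE 0.0296, adjusted p = 9.37e-08, edgeR). All 3 stayed past the threshold when scaled to the LINE total, as did 5 of the 31 rodent families in all, a smaller share than the 26.1% of all features called higher with that scaling.

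Old L1 families were mostly level. Among the 86 tested L1M and L1P rows, 23 (26.7%) were higher and 5 (5.81%) lower, against 32.5% of all features in each direction. Scaled to the LINE total, 8 were higher and 6 lower, against 26.1% and 33.9% of all features. Their median log2 fold change was 0.045, and 57 of the 86 were above 0. The most abundant of them overlapped between genotypes. L1M4 had 96289 and 93816 normalized counts in wt cells and 100307 and 93287 in Top2β-null cells (log2 fold change 0.026, adjusted p = 0.514, edgeR). L1M5 had 95422 and 93183 against 97677 and 92348 (0.011, adjusted p = 0.78, edgeR), and L1M2 had 78302 and 76754 against 83285 and 77869 (0.056, adjusted p = 0.142, edgeR). When scaled to the total count, L1M4 (0.096), L1M5 (0.080) and L1M2 (0.13) were higher and past the threshold, as was L1M2 without a filter (0.073). With repeats fitted alone, L1M4 (-0.0093) and L1M5 (-0.024) turned negative.

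Calls were spread over the subdivisions of the old L1 names, and no difference between them was tested. Over all features, 32.5% were called in each direction. None of 7 L1MB families was higher or lower, with a median log2 fold change of -0.0074. Of 11 L1MC families 2 were higher, of 9 L1MA families 3, of 6 L1MD families 1, and none of these was lower. The L1ME families had 7 higher and 2 lower of 27, and the L1M families with a number in place of the letter, or neither, had 9 higher and 3 lower of 24. Of the L1P names, L1P5 was higher and L1PB4 was not past the threshold (0.062, adjusted p = 0.525, edgeR).

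The ancient L2 families did not pass the test in either direction with the scaling used throughout, though L2 and L2b did under other settings. L2a had 173451 and 168899 normalized counts in wt cells and 176771 and 167233 in Top2β-null cells (log2 fold change 0.007, SE 0.0326, adjusted p = 0.867, edgeR). L2b had 84893 and 83285 against 85319 and 79678 (-0.028, adjusted p = 0.476, edgeR), and L2c lay at 0.03 (adjusted p = 0.44, edgeR). With repeats fitted alone, L2b was lower and past the threshold (-0.063), whereas it turned positive when scaled to the total count (0.042). The family named L2 was at 130195 and 126891 against 138348 and 131188, without overlap, and missed the threshold (0.068, adjusted p = 0.0706, edgeR). It passed the threshold with DESeq2 (0.076), with TMM factors from genes alone (0.087), when scaled to the total count (0.14), without a filter (0.085), and without Top2β-null replicate 1 (0.0685) or 2 (0.12).

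Of the 15 CR1 families, 5 (33.3%) were higher and 1 (6.67%) lower, all of them among the sparse rows. Of all features, 32.5% were called in each direction. L3, with 53088 and 51889 normalized counts in wt cells and 54829 and 50874 in Top2β-null cells, had a log2 fold change of 0.0099 (adjusted p = 0.808, edgeR). L3b (0.0026, adjusted p = 0.959), Plat_L3 (0.099, adjusted p = 0.0771) and CR1_Mam (-0.0046, adjusted p = 0.946) did not pass edgeR's test either. Plat_L3 passed the threshold with TMM factors from genes alone (0.12), without a filter (0.12) and when scaled to the total count (0.17). L3 also passed it with that last scaling (0.079), and turned negative with repeats fitted alone (-0.026). Of the 11 families whose names begin with X, all sparse (at most 1003 normalized counts, in X7B_LINE), 5 were higher, X7C_LINE was lower and the other 5 did not pass the threshold.

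Among the 8 other L1 rows, MusHAL1 (log2 fold change 0.13, adjusted p = 0.00241) and HAL1b (0.29, adjusted p = 2.22e-05), named after their values were seen, were higher by edgeR's test and L1_Mm was lower. L1_Rod (log2 fold change 0.017, adjusted p = 0.66) and HAL1 (-0.052, adjusted p = 0.124) were not past edgeR's threshold. Scaled to the total count, L1_Rod was higher and past it (0.087), and with repeats fitted alone HAL1 was lower and past it (-0.087). L1_Rod (-0.018) and HAL1 (0.018) had the opposite sign under the other of these settings. Of the 7 remaining rows, 3 (42.9%) were higher, against 32.5% of all features: L4_C_Mam, Mam_R4 and L5. Mam_R4, named after its value was seen, had a log2 fold change of 0.32 (adjusted p = 0.0107, edgeR, and 0.0204 when scaled to the LINE total). L4_C_Mam was higher (0.17, SE 0.0404, adjusted p = 0.00177, edgeR) but not past the threshold with repeats fitted alone (0.13) or scaled to the LINE total (0.10), while L4_A_Mam (-0.047, adjusted p = 0.38) and L4_B_Mam (-0.055, adjusted p = 0.363) were not past it. The L4 families overlapped between genotypes except for L4_C_Mam, with 3495 and 3411 normalized counts in wt cells and 4026 and 3732 in Top2β-null cells.

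Summed levels gave the comparison of young with old families. The 6 L1Md families together had 687881 and 690162 normalized counts in wt cells and 779329 and 719343 in Top2β-null cells, 1.09-fold more. The other rodent families had 2205163 and 2202441 against 2438273 and 2271649, 1.07-fold more. In both groups the Top2β-null libraries lay above the wt libraries, by 0.12 and 0.095 on the log2 scale with pooled SDs of 0.0578 and 0.0511. Without Top2β-null replicate 2 these differences were 0.20 and 0.16.

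The sums of the old families overlapped between genotypes. Old L1 families had 1422162 and 1403068 normalized counts in wt cells and 1497495 and 1404429 in Top2β-null cells (1.03-fold). L2 families had 465045 and 454204 against 480643 and 452731 (1.02-fold), and CR1 families 73858 and 72489 against 77400 and 71139 (1.01-fold). For old L1, L2 and CR1 the log2 differences of 0.038, 0.021 and 0.02 were smaller than the pooled SDs of 0.0473, 0.0464 and 0.0623. Without Top2β-null replicate 2 they were 0.10, 0.083 and 0.0998. The direction for L2 and CR1 turned when repeats were scaled alone and without wt replicate 2 (-0.0101 and -0.0078), and for CR1 also without Top2β-null replicate 1 (-0.0015).

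Ratios within a library do not depend on the scaling and were tighter between replicates. The log2 ratio of summed L1Md to summed old L1 was -1.05 and -1.02 in wt cells and -0.94 and -0.97 in Top2β-null cells. It was higher by 0.082 in Top2β-null cells, against a pooled SD of 0.0167, and the genotypes did not overlap. The ratio of the other rodent L1 families to old L1 was 0.63 and 0.65 in wt cells and 0.70 and 0.69 in Top2β-null cells, a difference of 0.057 with a pooled SD of 0.0101. L1Md to L2 gave 0.56 and 0.60 against 0.70 and 0.67, a difference of 0.098 with a pooled SD of 0.0243. Each of these 3 ratios was higher in both Top2β-null libraries than in both wt libraries. L1_Mm, a mouse row outside the L1Md and rodent groups, is in none of them. It fell from 43020 and 42131 normalized counts in wt cells to 22649 and 20378 in Top2β-null cells. Counting it with the L1Md families would therefore make the L1Md differences smaller, and by how much was not computed. When any 1 library was removed, the L1Md to old L1 difference lay between 0.07 and 0.094.

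**Figure D4:**
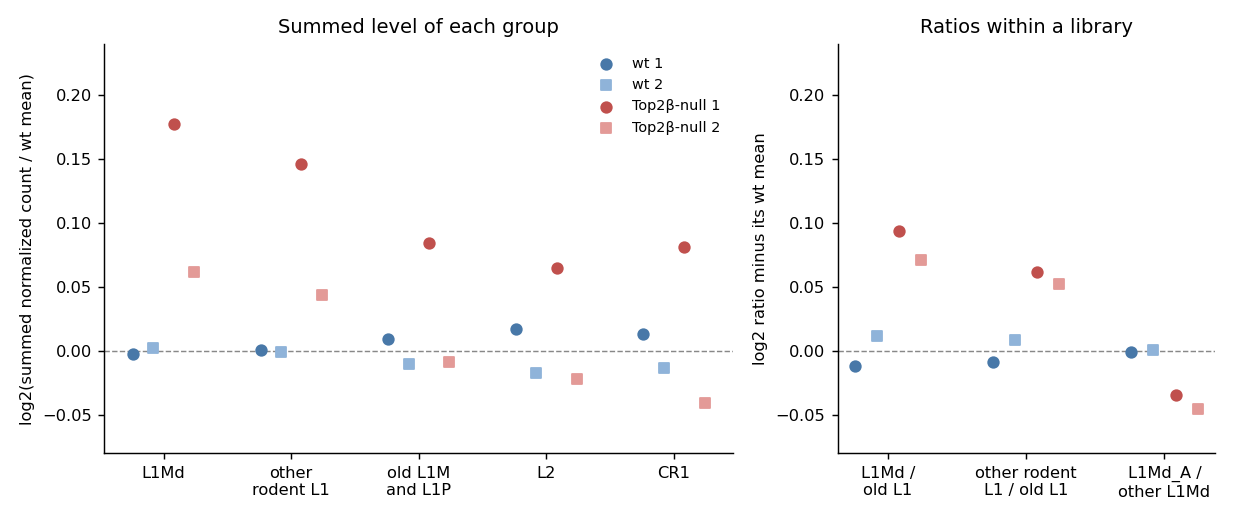
Left, the log2 of the summed normalized count over its wt mean for 5 groups of LINE families, 1 point per library. Right, log2 ratios of summed counts within each library, minus their wt mean. On the left, Top2β-null replicate 1 lies above replicate 2 in every group; on the right, both Top2β-null libraries lie on the same side of both wt libraries in all 3 ratios.

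L1Md_A lost ground within the young families. Its log2 ratio to the other L1Md families was -2.41 in both wt libraries, and -2.44 and -2.46 with Top2β absent, so that it fell by 0.039 with a pooled SD of 0.00559. The exact permutation p was 0.33 for each of the 7 ratios computed, the smallest that 4 libraries allow, so none of them can pass a threshold of 0.05. As shares of all LINE counts, L1Md families held 13.7% and 13.8% in wt cells and 14.4% and 14.2% in Top2β-null cells. Old L1 families held 28.3% and 28.2% against 27.6% and 27.8%, and L2 families 9.27% and 9.11% against 8.87% and 8.95%.

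A few families outside the L1Md names stood far outside this narrow range. L1_Mm, a mouse L1 row outside the L1Md names, fell from 43020 and 42131 to 22649 and 20378 normalized counts, the largest decrease among LINE rows (log2 fold change -0.98, SE 0.0376, adjusted p = 1.06e-12, edgeR). Its level in Top2β-null cells was 0.505 of that in wt cells, and the genotypes were far apart. The log2 ratio of L1_Mm to the summed L1Md families was -3.999 and -4.03 in wt cells and -5.11 and -5.14 in Top2β-null cells. L1_Mm alone set the sum of the other L1 rows, which lay at 0.871 of the wt level with it, whereas the log2 difference without it was 0.018 (pooled SD 0.0489).

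L1MEg, an old L1 family, moved the opposite way. It had 23800 and 23058 normalized counts in wt cells and 38188 and 38084 in Top2β-null cells, a log2 fold change of 0.70 (SE 0.0259, adjusted p = 6.68e-13, edgeR). Here both Top2β-null libraries were nearly equal. Relative to the summed other old L1 families, its log2 ratio was -5.88 and -5.90 in wt cells and -5.26 and -5.17 in Top2β-null cells. The related rows L1MEg1 (0.063, adjusted p = 0.609) and L1MEg2 (-0.0016, adjusted p = 0.984) did not pass edgeR's test.

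The largest increases were in sparse old families. L1M2b had 89.8 and 65.7 normalized counts in wt cells and 157 and 166 in Top2β-null cells, a log2 fold change of 1.06 (SE 0.176, adjusted p = 6.23e-05, edgeR). L1M3d had 717 and 701 against 1390 and 1339 (0.94, SE 0.0564, adjusted p = 3.37e-10, edgeR). L5, of the RTE-X family, had 185 and 240 against 423 and 396 (0.94, SE 0.114, adjusted p = 2.02e-06, edgeR). In all 3 rows both Top2β-null libraries lay far above both wt libraries, and the wt libraries of L1M2b and L5 were themselves well apart.

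L1ME5 and L1P5 complete the 6 largest increases. L1ME5 had 104 and 123 normalized counts in wt cells and 203 and 188 in Top2β-null cells (log2 fold change 0.78, SE 0.146, adjusted p = 1.85e-04, edgeR). L1P5 had 329 and 369 against 543 and 553 (0.65, SE 0.0819, adjusted p = 3.34e-06, edgeR). All 6 families also remained past the threshold when scaled to the LINE total.

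The decreases next in size were in rows with far fewer counts than L1_Mm. L1M7 fell from 1223 and 1242 to 889 and 948 normalized counts (log2 fold change -0.42, SE 0.0563, adjusted p = 5.83e-06, edgeR). X7C_LINE fell from 703 and 752 to 567 and 536 (-0.40, SE 0.069, adjusted p = 9.08e-05, edgeR), and L1M3b from 430 and 421 to 351 and 324 (-0.34, SE 0.0852, adjusted p = 0.00265, edgeR). Smaller decreases were measured for L1M3e (-0.16, adjusted p = 0.00137, edgeR) and L1ME3C (-0.15, adjusted p = 0.0087, edgeR). L1M3e was not past the threshold when scaled to the total count (-0.086). L1ME3C was not past it with that scaling (-0.076), with DESeq2 (-0.14), with repeats fitted alone (-0.18) or without Top2β-null replicate 1 (-0.095), while L1_Mm, L1M7, X7C_LINE and L1M3b stayed lower and past it in all fits run.

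**Figure D5:**
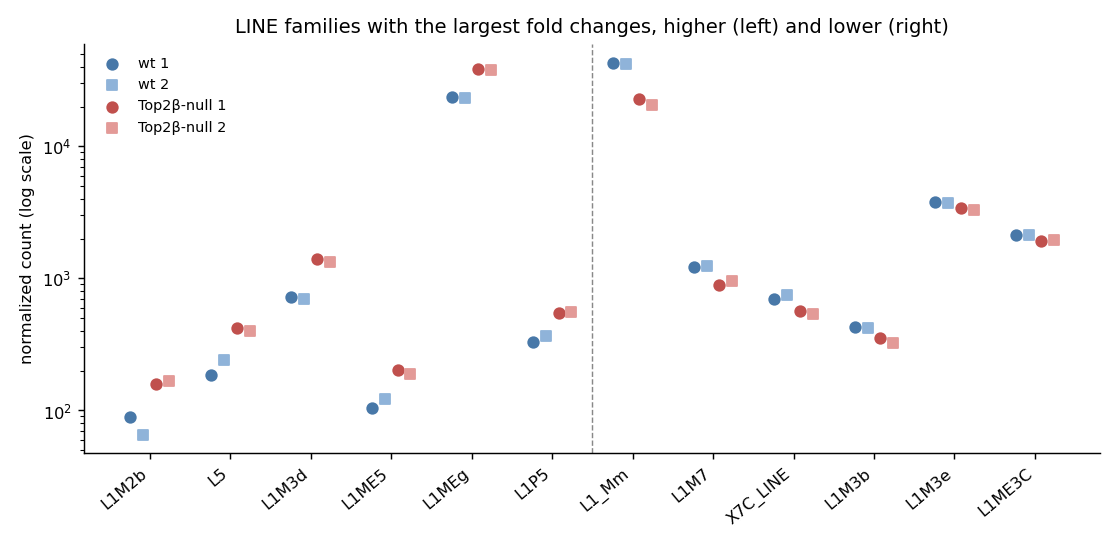
Normalized counts on a log axis for the 6 LINE families with the largest increases (left of the dashed line) and the 6 with the largest decreases (right), with 1 point per library, wt in blue and Top2β-null in red. The genotypes do not overlap in any of the 12; L1_Mm falls to 22649 and 20378 normalized counts and L1MEg rises to 38188 and 38084.

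Genes known to restrain or to serve L1 elements were followed in the same libraries. Of 43 listed genes, 38 were tested. In Top2β-null cells 17 (44.7%) were higher and 12 (31.6%) lower, against 32.5% of all features in each direction, and 9 did not pass the threshold. No test compared these shares, and nothing particular to the lists is read from them or from the counts in each list below. Their median log2 fold change was -0.011. L1td1, which derives from an L1 protein and is known from pluripotent cells, did not exceed 1.0 normalized count in any library.

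Among the restriction factors, Apobec3, a cytidine deaminase that limits retroelements, had 11.1 and 3.9 normalized counts in wt cells and 2680 and 2762 in Top2β-null cells (log2 fold change 8.50, SE 0.13, adjusted p = 1.08e-17, edgeR). The wt level rests on few counts, so the size of this fold is poorly fixed. Apobec1, a related deaminase, went from 48.4 and 37.7 to 783 and 733 (4.14, SE 0.121, adjusted p = 3.42e-14, edgeR). Bst2, which tethers budding virus particles to the cell, went from 441 and 473 to 3430 and 3509 (2.92, SE 0.0538, adjusted p = 1.09e-16, edgeR). Rnaseh2a, the catalytic subunit of RNase H2, which cleaves RNA paired with DNA, fell from 10284 and 10323 to 4888 and 5015 (-1.06, SE 0.0267, adjusted p = 5.61e-15, edgeR). In this list of 12 tested genes, 6 were higher and 3 lower.

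Of the 7 DNA methylation genes, 4 were higher and 2 lower. Tet1, an enzyme that oxidizes 5-methylcytosine, rose from a mean of 21.7 ± 3.51 normalized counts (SD, 2 libraries) to 137 and 120 (log2 fold change 2.56, SE 0.236, adjusted p = 8.31e-08, edgeR). Uhrf1, which brings the maintenance methyltransferase to newly replicated DNA, fell from 41212 and 41126 to 27044 and 27583 (-0.59, SE 0.0252, adjusted p = 4.28e-12, edgeR). Dnmt1, that methyltransferase, lay at -0.035 and did not pass the threshold (adjusted p = 0.241, edgeR).

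In the list of HUSH, MORC2A and H3K9 methylation genes, 4 of 11 were higher and 3 lower. Pphln1, which encodes the HUSH subunit periphilin, fell from 20854 and 20949 to 11769 and 12331 normalized counts (log2 fold change -0.79, SE 0.027, adjusted p = 2.39e-13, edgeR). Of the other HUSH subunits, Mphosph8 (-0.0029, adjusted p = 0.953) and Fam208a (-0.046, adjusted p = 0.163) were not past edgeR's threshold. Among cofactors of the L1 particle, 3 of 8 were higher and 4 lower, and Pabpc1, a poly(A)-binding protein found in L1 particles, fell from 381607 and 386942 to 279942 and 289511 (-0.43, SE 0.032, adjusted p = 5.10e-09, edgeR). The genotypes overlapped for Mphosph8 and not for Pphln1 or Pabpc1.

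For scale, the major satellite repeat (GSAT_MM), which lies at pericentromeres, had a log2 fold change of 0.65 (SE 0.0335, adjusted p = 4.90e-11, edgeR). Of the 157 LINE rows, only L1M2b, L5, L1M3d, L1ME5 and L1MEg had a larger log2 fold change, and L1P5 lay just under it. L1Md_F, the highest of the L1Md families, stood at 0.24.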

How the data were processed

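Ribosomal RNA-depleted total RNA of 2 wt and 2 Top2β-null MEF samples was analysed from 1 deposited table of whole-number counts per gene and repeat family. To make these counts, the authors trimmed read pairs (Trim Galore!), mapped them to mm10 with STAR, allowing many alignments per read, and ran TEtranscripts on Gencode genes and a RepeatMasker annotation modified for L1 elements. Its mode and strand setting are not given in the sources used here. The labels gave the genotype and replicate of each library.

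Rows that reached 10 counts in 2 or more libraries were tested with edgeR 4.0.16 in R 4.3.3. TMM factors came from genes and repeats, the quasi-likelihood model held genotype alone, and p-values were adjusted (Benjamini-Hochberg) over 26566 features. Group sums and ratios were compared by exact two-sided permutation tests. The members and lists were chosen with earlier results of these data known. Named were all L1Md rows, the 3 most abundant rows of each other group, the 6 largest changes in each direction among rows with a mean normalized count above 100, an adjusted p below 0.05 and no overlap, rows past the full cut-offs, and the 4 largest called changes in each direction among L1 control genes. The spread between replicates exceeded counting noise (chi-square over its degrees of freedom 3.65 for wt, 5.07 for Top2β-null). Alternatives were DESeq2 1.42.0, other scalings and filters, repeats fitted alone, a replicate block, and each library left out. The fits were tested on simulated data. GENCODE M21 gave symbols for 54409 gene identifiers.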

Additional observations from a re-analysis of the deposited data

How the results depend on the processing

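Few LINE families were limited by depth: 155 of 157 had a mean above 100 normalized counts. Scaling, and the spread of the Top2β-null libraries, moved more values. Of the 35 named LINE rows, 224 of 279 values from fits to all 4 libraries kept their direction and their side of the threshold, 11 fell below it, 23 passed it and 21 changed sign, as did 13 of 140 values with a library left out. The cause of the shifts was not tested.

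Scaling to the total count gave 103 LINE rows higher, 4 lower and 3 past the full cut-offs, with a median log2 fold change of 0.13. The summed differences were then 0.19 for L1Md, 0.16 for other rodent L1, 0.11 for old L1, 0.091 for L2 and 0.0900 for CR1. L1Md_Gf (0.062), L2b (0.042), HAL1 (0.018), L4_A_Mam (0.023) and L4_B_Mam (0.015) turned positive. Scaling to the LINE total gave 21 rows higher and a median of -0.0051, and L1M4 (-0.041), L1M5 (-0.056), L1M2 (-0.012), L2a (-0.0600), L3 (-0.057), L3b (-0.066) and L1_Rod (-0.0503) turned negative. With repeats fitted alone, 24 rows were lower and 2 passed the cut-offs, the sums of L2 (-0.013) and CR1 (-0.014) turned negative, and so did L1M4 (-0.0093), L1M5 (-0.024), L2a (-0.028), L3 (-0.026), L3b (-0.034) and L1_Rod (-0.018). L1Md_Gf was at 0.00018 with DESeq2, 0.011 when genes alone set the TMM factors and 0.0095 without a filter. With at least 100 counts in every library, 0 rows passed the cut-offs with edgeR, since L1M2b was removed, while 60 rows were higher and DESeq2 called 1 row without that filter. A log2 fold change above 0.5 in place of 1 gave 7 rows.

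With 1 library left out, between 45 and 109 rows were higher, between 6 and 11 lower and between 1 and 2 past the cut-offs, and the median ran from 0.035 to 0.13. The summed differences ran from 0.10 to 0.20 for L1Md, from 0.079 to 0.16 for other rodent L1, from 0.014 to 0.10 for old L1, from -0.0101 to 0.083 for L2 and from -0.0078 to 0.0998 for CR1. Rows whose sign changed ran from -0.027 to 0.044 (L1Md_Gf), -0.0069 to 0.096 (L1M4), -0.021 to 0.069 (L1M5), -0.027 to 0.065 (L2a), -0.056 to 0.0397 (L2b), -0.021 to 0.082 (L3), -0.043 to 0.10 (L3b), -0.0052 to 0.086 (L1_Rod), -0.0705 to 0.0066 (HAL1), -0.082 to 0.0395 (L4_A_Mam) and -0.076 to 0.023 (L4_B_Mam).

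Same-numbered libraries did not deviate together (correlation 0.0197 over 17952 features and -0.0317 over 155 LINE rows). With a single replicate difference per genotype, this cannot exclude that same-numbered libraries were prepared together, which the labels do not state. With the replicate block, 58 LINE rows were higher, 9 lower and 1 past the cut-offs.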
